A study of Mus musculus with 18 samples.

Results

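The inhibitory dorsal interneuron transcription factors described here are the 10 genes Pax2, Pax8, Lhx1, Lhx5, Lbx1, Gbx1, Gbx2, Prdm13, Tfap2a and Tfap2b, taken by symbol from a table of 23228 genes, and all 10 were listed there. RNA was sequenced from mouse embryos of the ICR strain in a study of Ptf1a, a basic helix-loop-helix factor needed in both neural tube and pancreas. One RNA sample came from E12.5 neural tubes carrying the 2.3Ptf1a-GFP transgene, dissociated with trypsin and sorted for GFP. In that transgene GFP is driven by the 2.3 kb Ptf1a autoregulatory enhancer with a beta-globin basal promoter, so the sample holds whichever cells that enhancer labels. The other was whole, unsorted E15.5 pancreas, and both carry the genotype label WT. The labels name 2 libraries for each tissue, but the table holds 1 value per gene and tissue, so every value below is the authors' pooled value, with no replicate spread and no test. Tissue, stage, sorting and RNA extraction differed together between the samples and cannot be told apart.

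In the dorsal neural tube Ptf1a joins an E protein and Rbpj in a complex that binds an E-box next to a TC-box, and it directs progenitors to an inhibitory fate at the expense of excitatory fates. Pax2, Pax8, Lhx1 and Lhx5 are selectors kept on in the inhibitory neurons, and Lbx1 marks several dorsal interneuron classes. Prdm13 is a zinc finger factor downstream of Ptf1a that represses excitatory genes. In the developing pancreas Ptf1a instead serves progenitor and acinar programmes. The question addressed is how far one factor goes with separate gene programmes in these tissues.

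The sequence that selected the neural tube cells is shown first, because it holds E-boxes with a TC-box nearby. Whether the complex binds these pairs was not tested, as no binding data were used here. The enhancer lies on chromosome 2 (mm9, 19351717 to 19354014 per the labels) and spans 2298 bases. A search for CANNTG (its own reverse complement) and TGGGAA (both strands) found 16 E-boxes and 3 TC-boxes in it. At 2 places a TC-box stood within 25 bases of an E-box, in each case with 6 bases between them. At the second place another E-box overlaps the one shown and lies 8 bases from the TC-box. Capitals mark the E-box and the TC-box, and both stretches are from the plus strand of NCBIM37, the assembly that mm9 names.
enhancer pair at chr2:19352474-19352511: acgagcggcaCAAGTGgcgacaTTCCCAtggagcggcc
enhancer pair at chr2:19353710-19353747: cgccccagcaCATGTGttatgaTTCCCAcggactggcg

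RefSeq promoter windows on GRCm38.p6 were found for 7 of the 10 factors, 10 windows in all, and the 250 bases before each start were searched. None of these 10 windows held an E-box and a TC-box within 25 bases, against 5.02% of 32851 windows of all genes. An E-box was in 4 of the 10 windows (66.2% of all windows) and a TC-box in 3 of the 10 (21.6% of all). Prdm13 is shown because its window held 2 TC-boxes and no E-box, and Gbx2 because its window held 3 E-boxes and no TC-box. The first of the 3 Pax2 windows is shown for its single TC-box, and the other 2, not shown, each held 1 E-box and no TC-box. Capitals mark both kinds of box, and each sequence runs 5′ to 3′ on the strand of its gene.
Prdm13, minus strand, chr4:21685964-21686213: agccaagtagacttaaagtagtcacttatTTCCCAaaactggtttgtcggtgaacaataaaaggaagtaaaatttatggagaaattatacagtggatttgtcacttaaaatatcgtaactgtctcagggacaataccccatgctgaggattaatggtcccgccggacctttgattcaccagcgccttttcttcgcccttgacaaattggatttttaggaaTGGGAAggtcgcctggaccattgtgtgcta
Gbx2, minus strand, chr1:89931177-89931426: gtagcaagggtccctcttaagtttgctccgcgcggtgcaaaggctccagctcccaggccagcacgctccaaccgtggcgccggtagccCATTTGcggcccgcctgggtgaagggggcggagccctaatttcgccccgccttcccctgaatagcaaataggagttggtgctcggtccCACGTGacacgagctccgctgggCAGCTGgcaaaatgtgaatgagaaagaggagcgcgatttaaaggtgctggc
Pax2, plus strand, chr19:44746351-44746600: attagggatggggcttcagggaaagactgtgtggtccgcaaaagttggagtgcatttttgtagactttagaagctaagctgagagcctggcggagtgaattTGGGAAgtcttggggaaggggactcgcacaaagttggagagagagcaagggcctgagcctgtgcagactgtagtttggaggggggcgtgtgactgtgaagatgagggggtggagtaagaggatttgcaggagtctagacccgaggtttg
The homeodomain core TAATTA was in 1 of the 10 windows, of Tfap2a (4.84% of all windows), and the AP-2 core GCCNNNGGC (its own reverse complement) in 1, of Pax2 (13.7% of all). TATAAA on either strand was in 0 of the 10 windows and in 12.4% of all. These matches describe letters in short windows, with no binding data used here.

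All 10 factors were expressed in the sorted neural tube cells, and in whole pancreas 7 stood near or below the limit of detection while Lhx1, Tfap2a and Tfap2b were low but above it. In FPKM (the authors' unit, a fragment count divided by transcript length and by the library's mapped fragments) they lay between 30.3 and 112 in neural tube, with a median of 65.4, and at most at 0.309 in pancreas. The summed level of the 10 was 665 FPKM in neural tube and 0.649 FPKM in pancreas, which is 0.146% and 0.0000921% of all FPKM in each sample. A gene was called higher in a sample where log2(FPKM + 1) differed by at least 2 (4 times) and the higher value reached 5 FPKM. By this rule of size 10 of 10 were called toward neural tube and 0 toward pancreas. Over all 23228 genes the rule called 4.76% higher in neural tube and 5.5% higher in pancreas, and 12.5% of the 8865 genes that reached 5 FPKM in neural tube were higher there. Among the 10744 genes that reached 5 FPKM in either tissue it called 10.3% toward neural tube and 11.9% toward pancreas. The 10 factors passed a threshold of 8 times as well (2.35% of all genes toward neural tube). A minimum of 10 FPKM (4.09%), no minimum (5.02%) or a threshold of 2 times (10.7%) could remove none of them, since all lay above 30 FPKM in neural tube and passed the stricter thresholds. The median difference was 5.98 for the 10 factors (range 4.95 to 6.80), 0.00 for all genes and -0.07 for the 14303 genes that reached 1 FPKM in either tissue. Since the list was written with earlier results of these data known, this count and this median are descriptions.

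**Figure D1:**
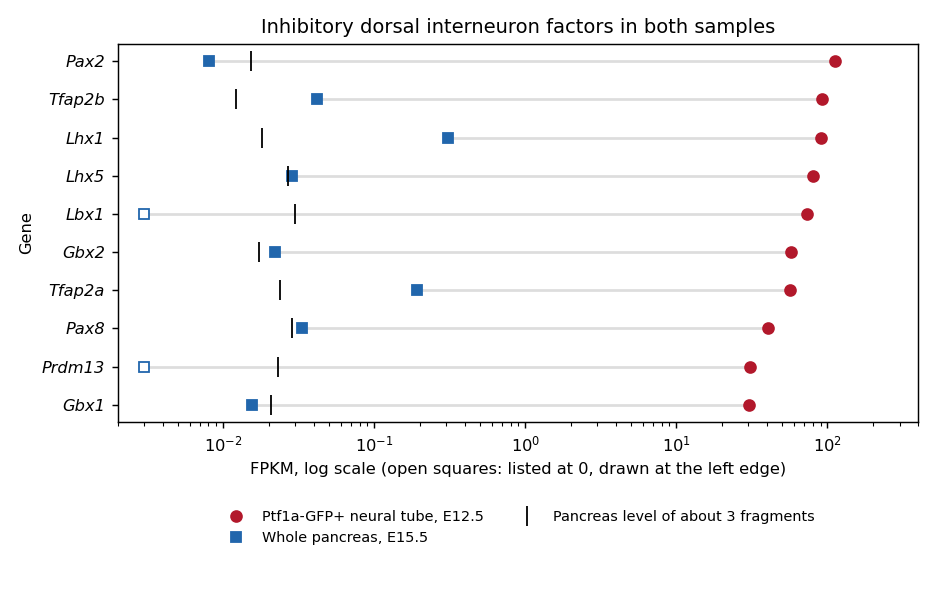
FPKM on a log axis for each of the 10 factors in Ptf1a-GFP+ neural tube (red circles) and whole pancreas (blue squares, open where listed at 0 and drawn at the left), with a black tick at the pancreas level of about 3 fragments. The neural tube points lie between 30.3 and 112 FPKM and no pancreas point exceeds 0.309 FPKM.

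Of the paired-domain factors, Pax2 had 112 FPKM in neural tube, against 0.00811 FPKM in pancreas, a difference of 6.80 in log2(FPKM + 1). Its paralog Pax8, which overlaps with Pax2 in function in kidney and in inhibitory neurons, had 40.6 FPKM in neural tube, against 0.0333 FPKM in pancreas, a difference of 5.33. Pax2 was the highest of the 10 in neural tube, at rank 572 of all genes, and stood 2.75 times above Pax8.

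The LIM homeodomain factors Lhx1 and Lhx5, which act together to hold Pax2 on in dorsal inhibitory neurons, were the closest pair of paralogs. Lhx1 had 91.1 FPKM in neural tube, against 0.309 FPKM in pancreas, a difference of 6.14. Lhx5 had 80.7 FPKM in neural tube, against 0.0287 FPKM in pancreas, a difference of 6.31. In neural tube Lhx1 was 1.13 times Lhx5.

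Among the other homeodomain factors, Lbx1, needed for the somatosensory relay classes of the dorsal horn, had 73.7 FPKM in neural tube and was listed at 0 in pancreas. Gbx2, best known for its role at the midbrain-hindbrain boundary, had 57.0 FPKM in neural tube, against 0.0222 FPKM in pancreas, a difference of 5.83. Gbx1, a marker of dorsal inhibitory neurons, had 30.3 FPKM in neural tube, against 0.0154 FPKM in pancreas, a difference of 4.95. Gbx1 was the lowest of the 10 in neural tube, at rank 2547, and Gbx2 stood 1.88 times above it.

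Prdm13 had 30.5 FPKM in neural tube and was listed at 0 in pancreas. The AP-2 factors, which act in neural crest and epidermis and also in inhibitory neurons of the retina and dorsal neural tube, were both high in the sorted cells. Tfap2b had 92.4 FPKM in neural tube, against 0.0415 FPKM in pancreas, a difference of 6.49. Tfap2a had 56.7 FPKM in neural tube, against 0.1905 FPKM in pancreas, a difference of 5.60, and stood 1.63 times below Tfap2b in neural tube.

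The order in neural tube, from high to low FPKM, was Pax2, Tfap2b, Lhx1, Lhx5, Lbx1, Gbx2, Tfap2a, Pax8, Prdm13 and Gbx1. Neighbours in this order differed by 1.01 to 1.40 times, and the highest stood 3.68 times above the lowest. Without replicate values it cannot be said which neighbours differ beyond their spread, and FPKM also depends on the transcript length assumed, which for Pax2 could follow any of 7 annotated transcripts. All 10 exceeded Ptf1a itself, which had 22.55 FPKM in neural tube and 37.1 FPKM in pancreas; Pax2 was at 4.95 times and Gbx1 at 1.35 times the Ptf1a level in neural tube. In these bulk samples fewer cells of a type and less RNA per cell cannot be told apart.

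The pancreas values were read against depth, which the table does not state. The most common low product of FPKM and transcript length, among protein-coding genes with a single annotated transcript, was assumed to stand for a single fragment. By this, a single fragment on a transcript of 1 kb was worth roughly 0.0436 FPKM in neural tube and 0.0246 FPKM in pancreas. That is a depth about 1.77 times greater in pancreas. On this approximate scale, with the longest coding transcript of each gene, the neural tube values stood for about 2220 fragments (Prdm13) to 12800 fragments (Tfap2b). In pancreas 2 factors were listed at 0, Lbx1 and Prdm13, and 2 more, Pax2 and Gbx1, lay under 3 fragments. Lhx5, Pax8 and Gbx2 lay at about 3.2, 3.5 and 3.8 fragments. Those 7 were not detectable or barely detectable at this depth, which does not show that they are absent.

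The other 3 factors reached 10 fragments or more in pancreas on this scale. Lhx1 at 0.309 FPKM came to about 51 fragments, Tfap2a at 0.1905 FPKM to about 24 and Tfap2b at 0.0415 FPKM to about 10. Neural crest and Schwann markers were present in both samples, where 8 of 12 reached 1 FPKM in neural tube and 10 of 12 in pancreas. None was listed at 0 in either sample, and the sums were 59.8 FPKM in neural tube and 53.6 FPKM in pancreas. Sox10, a defining neural crest factor, had 3.31 FPKM in neural tube and 2.06 FPKM in pancreas, a difference short of the rule. Of these 12 markers 2 passed the rule toward neural tube, Twist1 at 15.8 FPKM in neural tube and 1.39 FPKM in pancreas and Ngfr at 13.2 FPKM in neural tube and 2.55 FPKM in pancreas, a call lost with 2 of 5 rescalings. Another 4 passed it toward pancreas. S100b had 0.0259 FPKM in neural tube and 6.25 FPKM in pancreas, Erbb3 had 0.7625 FPKM in neural tube and 7.07 FPKM in pancreas, Ets1 had 1.95 FPKM in neural tube and 13.5 FPKM in pancreas, and Snai2 had 0.840 FPKM in neural tube and 8.20 FPKM in pancreas. The median difference of the 12 was -0.18 as deposited and 0.19 with samples rescaled to equal totals, where 1 marker passed toward pancreas. Of 8 kidney and Wolffian duct markers, a tissue that uses Pax2, Pax8 and Lhx1, 3 reached 1 FPKM in neural tube and 5 in pancreas, none was listed at 0, and the sums were 34.8 FPKM in neural tube and 30.4 FPKM in pancreas. By the rule 1 of the 8 passed toward neural tube, Sall1, and 2 toward pancreas, Osr1 and Ret. Osr1, of nephrogenic mesoderm and other mesenchyme, had 0.978 FPKM in neural tube and 11.6 FPKM in pancreas. Ret had the highest pancreas value of the 8, at 2.27 FPKM in neural tube and 13.04 FPKM in pancreas. Both calls toward pancreas were lost with a pseudocount of 5 FPKM, and that of Ret also with rescaling to equal totals. Sall1, a zinc finger gene of kidney and of neural progenitors, had 28.8 FPKM in neural tube and 1.31 FPKM in pancreas. Six2, of nephron progenitors, had 1.01 FPKM in neural tube and 0.738 FPKM in pancreas. The part of these cells in the values of Tfap2a, Tfap2b, Pax2, Pax8 and Lhx1 was not tested.

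**Figure D2:**
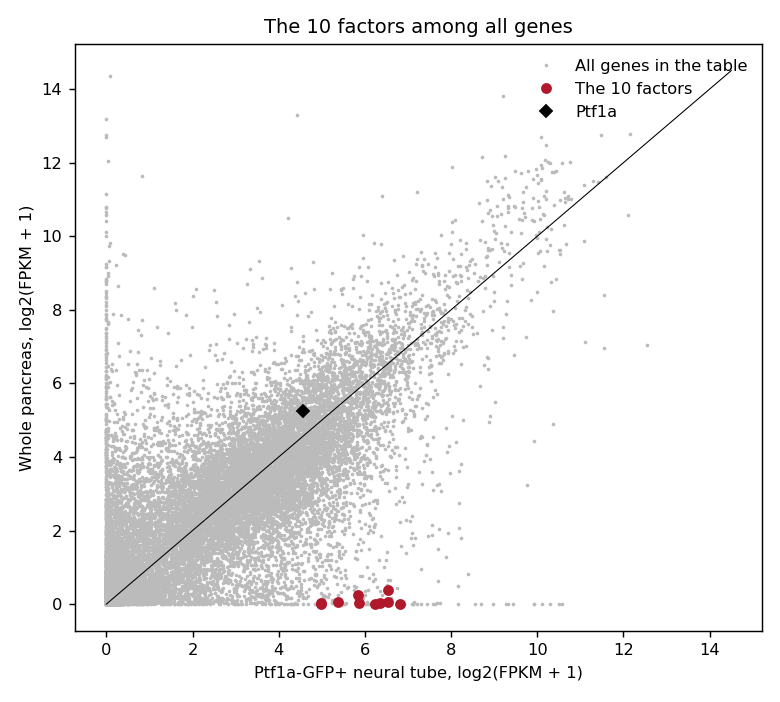
Each grey point is a gene, at its log2(FPKM + 1) in neural tube (x axis) and in whole pancreas (y axis), with the 10 factors in red and Ptf1a as a black diamond. The 10 factors lie along the bottom right edge, while Ptf1a, at 22.55 FPKM in neural tube and 37.1 FPKM in pancreas, lies near the line of equal values.

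Few genes combined such levels, as 93 of 23228 genes (0.4%), the 10 included, were at or above the lowest of the 10 in neural tube and at or below the highest of them in pancreas, a region drawn from the values themselves. The 5 other genes nearest to the median point of the 10, by distance in log2(FPKM + 1) over these 2 samples, were Hes5, Pou3f3, Mir212, Mir22 and Skor1. Hes5, a Notch target of neural progenitors, had 65.2 FPKM in neural tube, against 0.0404 FPKM in pancreas, at a distance of 0.02. Pou3f3, a POU factor of neural progenitors and neurons, had 64.3 FPKM in neural tube and was listed at 0 in pancreas. The 2 microRNA entries rest on very short transcripts, for which FPKM is uncertain. A likeness over 2 values is weak, and many genes share it.

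**Figure D3:**
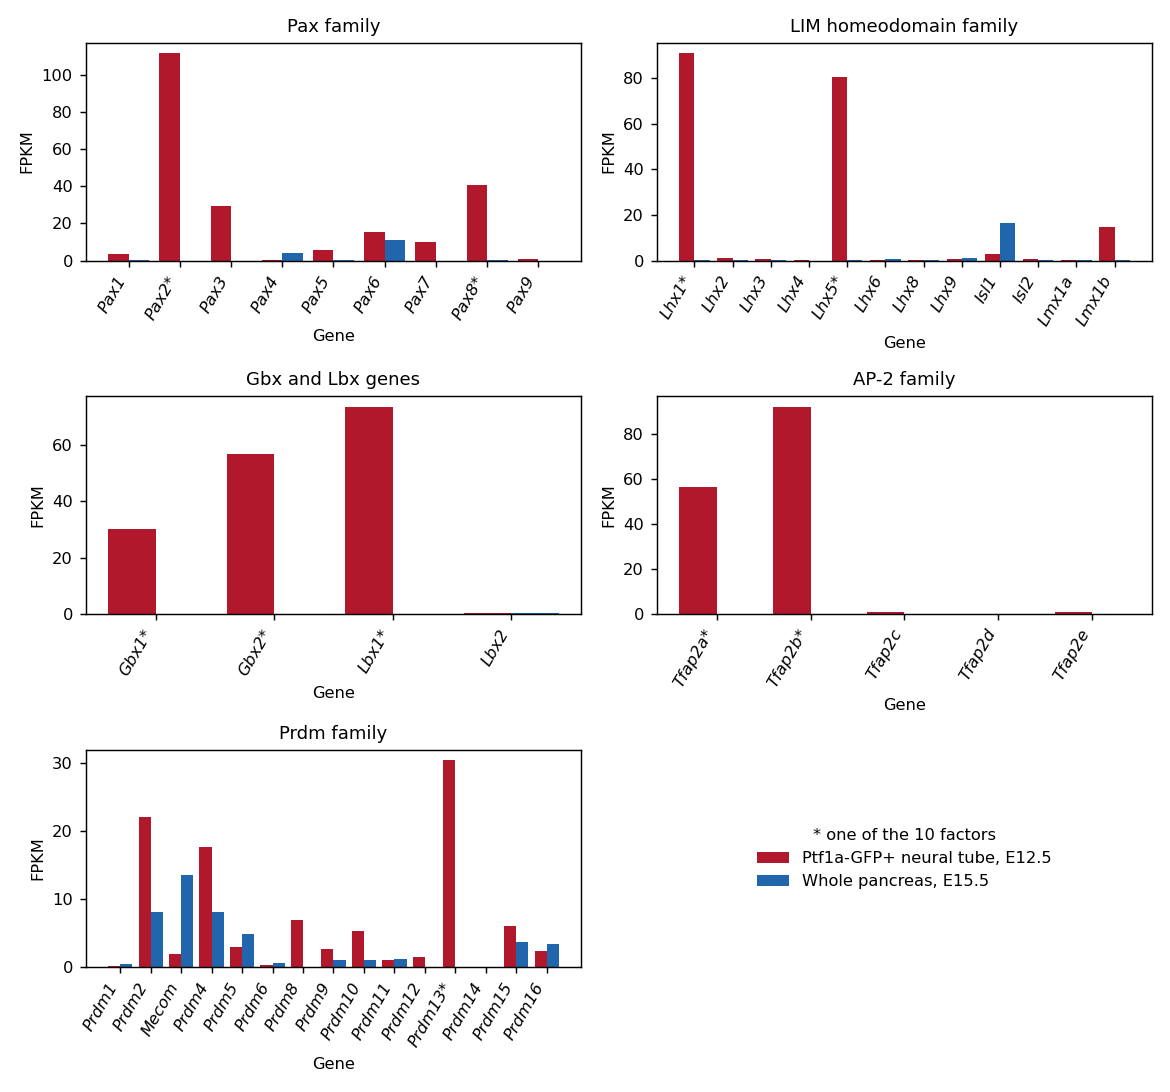
FPKM of every gene of the families of the 10 factors, with bars from 0 for neural tube (red) and pancreas (blue) and an asterisk on the 10. In the AP-2 panel Tfap2a and Tfap2b stand at 56.7 and 92.4 FPKM in neural tube and the other genes of the family stay below 1 FPKM.

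Within their gene families the factors made up most of the summed neural tube FPKM, Prdm13 excepted. Pax2 and Pax8 carried 70.2% of the summed FPKM of 9 Pax genes in neural tube and 0.274% in pancreas. Of the 7 other Pax genes, 3 passed the rule toward neural tube and 0 toward pancreas. Pax3 and Pax7, which mark dorsal progenitors, had 29.2 and 10.1 FPKM in neural tube, against 0.0123 and 0.0190 FPKM in pancreas. Pax5, the remaining gene of the Pax2 and Pax8 subfamily, had 5.42 FPKM in neural tube, against 0.0600 FPKM in pancreas. Pax6, used in both tissues, had 15.52 FPKM in neural tube and 10.8 FPKM in pancreas. The other 3 (Pax1, Pax4, Pax9) were under 5 FPKM in both samples.

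Lhx1 and Lhx5 carried 88.9% of the summed FPKM of 12 LIM homeodomain genes in neural tube and 1.76% in pancreas. Of the 10 others, Lmx1b, a selector of excitatory dorsal neurons, was the 1 higher in neural tube, at 14.9 FPKM, against 0.241 FPKM in pancreas. Isl1, of excitatory dI3 neurons, motor neurons and islet cells, was the 1 higher in pancreas, at 2.67 FPKM in neural tube and 16.5 FPKM in pancreas. Its call was lost with 3 of 5 rescalings of the samples. The other 8 stayed below 5 FPKM in both samples.

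Gbx1, Gbx2 and Lbx1 carried 99.8% of the Gbx and Lbx sum in neural tube and 13.1% in pancreas, where that sum was 0.2865 FPKM, and Lbx2 had 0.308 FPKM in neural tube and 0.249 FPKM in pancreas. Tfap2a and Tfap2b carried 99% of the AP-2 sum in neural tube and 75.4% in pancreas, where that sum was 0.308 FPKM, and Tfap2c, Tfap2d and Tfap2e had at most 0.8475 FPKM there and 0.0629 FPKM in pancreas. Reads within stretches that paralogs share cannot be assigned to one gene, and the longest run of identical bases between annotated transcripts was 27 for Pax2 and Pax8, 20 for Lhx1 and Lhx5, 38 for Gbx1 and Gbx2, and 29 for Tfap2a and Tfap2b. The labels state neither read length nor the treatment of multiply mapped reads, so small exchanges between paralogs remain uncertain.

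Prdm13 had a smaller share of its family, with 29.9% of the summed FPKM of 15 Prdm genes in neural tube and none in pancreas, where it was listed at 0. It was still the highest Prdm gene in neural tube. Of the 14 others, Prdm8, a repressor in projection neurons, was higher in neural tube at 7.03 FPKM, against 0.0463 FPKM in pancreas. Mecom, also known as Prdm3, was higher in pancreas, at 1.98 FPKM in neural tube and 13.6 FPKM in pancreas, a call that was lost with rescaling to equal totals. Prdm2 had 22.1 FPKM in neural tube and 8.13 FPKM in pancreas, and Prdm4 had 17.6 FPKM in neural tube and 8.15 FPKM in pancreas. Prdm10 had 5.402 FPKM in neural tube and 1.11 FPKM in pancreas, and Prdm15 had 6.17 FPKM in neural tube and 3.71 FPKM in pancreas, and these 4 stayed under the rule.

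**Figure D4:**
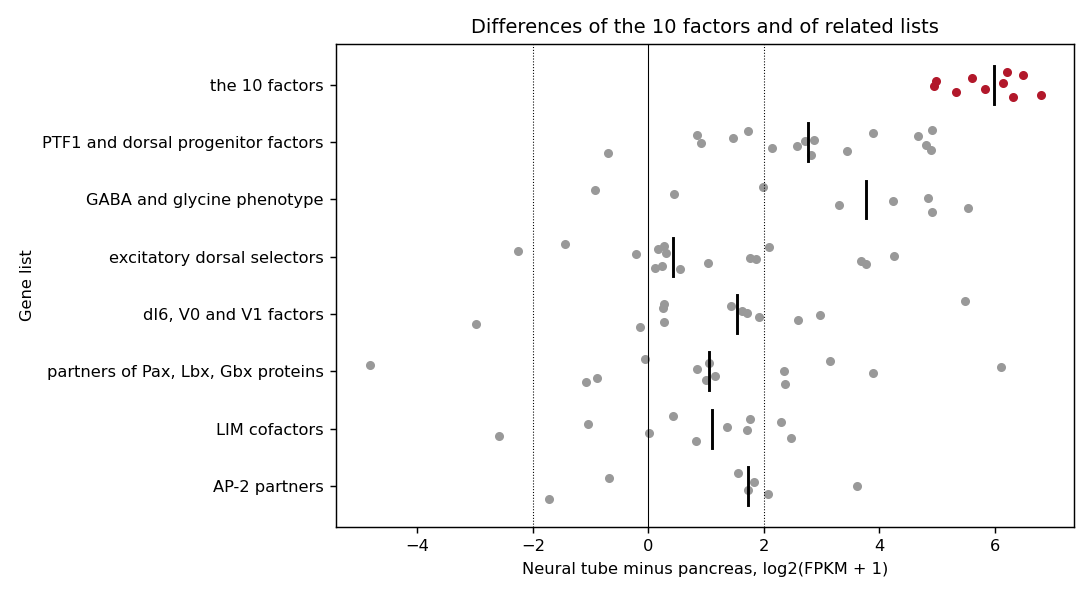
Difference in log2(FPKM + 1), neural tube minus pancreas, for the 10 factors (red) and for the genes of 7 related lists without those 10 (grey), with a black bar at each median and dotted lines at 2 and -2. The 10 factors lie between 4.95 and 6.80, and the medians of the other lists lie between 0.43 and 3.77.

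Genes for dorsal progenitors mostly passed the rule toward neural tube, while among those for the complex only Tcf3 did, at a difference of 2.14. The call of Tcf3 was lost with a pseudocount of 5 FPKM. Tcf4 at 1.73, Tcf12 at 1.46 and Rbpj at 0.91 fell short of the rule as deposited, and Tcf4 and Tcf12 passed it with some rescalings. Of the 16 genes for the complex and for dorsal progenitors, 11 passed the rule toward neural tube and 0 toward pancreas, with a median difference of 2.77. Neurog2, a proneural factor, had 29.3 FPKM in neural tube and was listed at 0 in pancreas. Ptf1a was the gene of this list with a negative difference, at -0.69.

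Genes of the inhibitory transmitter phenotype passed the rule toward neural tube for 5 of 8 and toward pancreas for 0, with a median difference of 3.77. Slc32a1, the vesicular transporter of GABA and glycine, had 46.1 FPKM in neural tube, against 0.0176 FPKM in pancreas. Gad2, which makes GABA, had 32.05 FPKM in neural tube, against 0.0965 FPKM in pancreas. Slc6a5, the neuronal glycine transporter, had 27.8 FPKM in neural tube and was listed at 0 in pancreas. Slc6a9, the glial glycine transporter, had 2.51 FPKM in neural tube and 5.68 FPKM in pancreas, short of the rule.

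Excitatory selectors were present at lower levels than the 10 factors. Of 16 such genes 3 passed the rule toward neural tube and 1, Isl1, toward pancreas, with a median difference of 0.43. The highest in neural tube was Tlx3, which antagonises the inhibitory fate, at 18.15 FPKM in neural tube and listed at 0 in pancreas. Pou4f1 had 12.8 FPKM in neural tube, against 0.0120 FPKM in pancreas. All 10 factors had a higher FPKM in neural tube than any of these 16 genes. Bulk values do not show which cells, inhibitory or excitatory, held the RNA of each of the 10.

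Further classes of neuron also use some of the 10, such as Pax2, Lhx1 and Lhx5 in V0 and V1 interneurons and Lhx1 in motor neurons. Of 12 genes for dI6, V0 and V1 cells, 3 passed the rule toward neural tube and 1 toward pancreas, with a median difference of 1.53 and sums of 68.1 FPKM in neural tube and 15.51 FPKM in pancreas. Sall3, a zinc finger gene not restricted to those classes, accounted for most of that sum at 44.0 FPKM in neural tube, against 0.00625 FPKM in pancreas. The defining factors En1 and Evx1 had 2.83 and 0.225 FPKM in neural tube, against 0.0219 and 0.00720 FPKM in pancreas. En2, the paralog of En1, had 6.91 FPKM in neural tube and was listed at 0 in pancreas. Wt1, of dI6 cells and of mesothelium, had 1.01 FPKM in neural tube and 14.9 FPKM in pancreas. All 7 motor neuron markers were below 1 FPKM in both samples, with sums of 2.41 FPKM in neural tube and 1.55 FPKM in pancreas. The part of V0 and V1 cells in the values of Pax2, Lhx1 and Lhx5 was not tested.

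Partners of these factors split into restricted and widely used genes. Among 13 corepressors and partners of Pax, Lbx and Gbx proteins, 5 passed the rule toward neural tube and 1 toward pancreas, with a median difference of 1.05. Skor1, a corepressor that binds Lbx1, had 69.1 FPKM in neural tube, against 0.0186 FPKM in pancreas, a level close to that of Lbx1 in both. Its paralog Skor2 had 14.0 FPKM in neural tube, against 0.00898 FPKM in pancreas, and the phosphatase gene Eya2 had 16.3 FPKM in neural tube, against 0.9615 FPKM in pancreas. The Groucho family gene Tle6 went the other way, with 0.327 FPKM in neural tube and 36.5 FPKM in pancreas. Aes and Tle2, of the same family, had 137 and 5.06 FPKM in neural tube and 287 and 10.2 FPKM in pancreas, short of the rule.

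The adaptors of LIM homeodomain proteins were present in both tissues. Of 10 such genes 2 passed the rule toward neural tube and 1 toward pancreas, with a median difference of 1.10. Ldb1, which bridges LIM factors, had 141 FPKM in neural tube and 40.8 FPKM in pancreas, a difference of 1.77 that passed the rule with 3 of 5 rescalings. Ssbp3, which stabilises Ldb1, had 126 FPKM in neural tube, against 24.9 FPKM in pancreas, and Lmo1, which competes for Ldb1, had 9.68 FPKM in neural tube, against 0.931 FPKM in pancreas. Ldb2 had 1.08 FPKM in neural tube and 11.45 FPKM in pancreas, and Rlim, a ubiquitin ligase that degrades these adaptors, had 9.32 FPKM in neural tube and 20.2 FPKM in pancreas.

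Of 7 AP-2 partners 2 passed the rule toward neural tube and 0 toward pancreas, with a median difference of 1.72. Kctd15, an inhibitor of AP-2 proteins, had 74.65 FPKM in neural tube, against 5.17 FPKM in pancreas, and the coactivator gene Cited2 had 65.4 FPKM in neural tube, against 14.8 FPKM in pancreas. The acetyltransferase gene Crebbp had 17.2 FPKM in neural tube and 4.12 FPKM in pancreas, under the rule, and Cited1 had 1.89 FPKM in neural tube and 8.54 FPKM in pancreas.

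**Figure D5:**
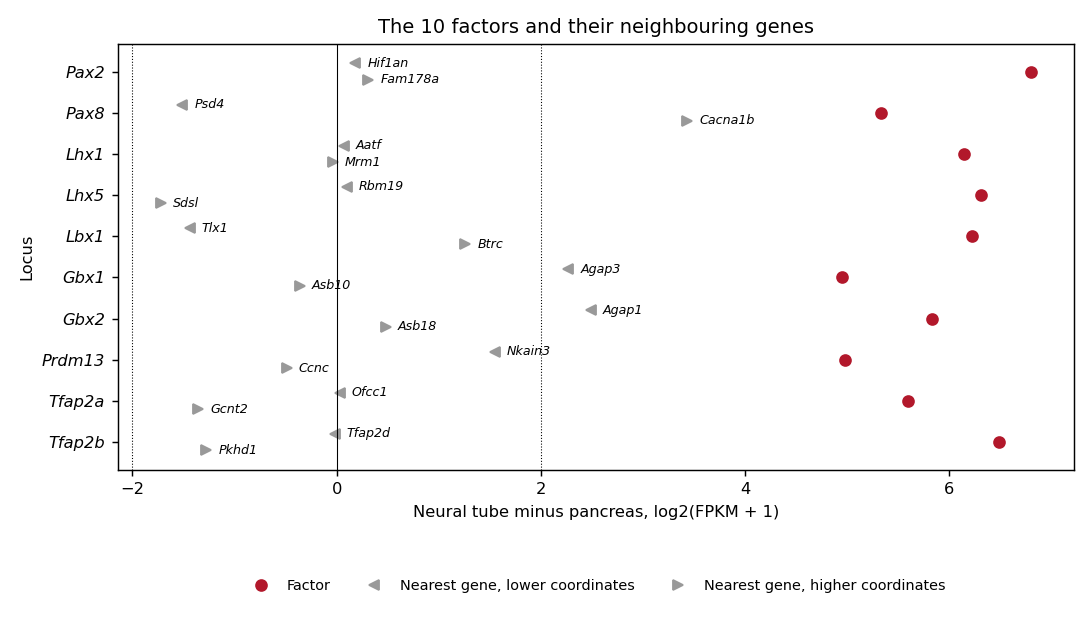
Difference in log2(FPKM + 1), neural tube minus pancreas, of each factor (red circles) and of the nearest protein-coding gene on each side that the table holds (grey triangles), with dotted lines at 2 and -2. The 10 factors lie at 4.95 or above and the flanking genes lie between -1.72 and 3.43.

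The genes that flank the 10 factors on the chromosome did not share their difference in general. In the GENCODE M1 annotation of NCBIM37 the 10 lie on 7 chromosomes, and the only 2 of them near each other are Pax2 (chr19:44830539-44912758) and Lbx1 (chr19:45307178-45310301), 394419 bases apart. Of 20 flanking genes 3 passed the rule toward neural tube and 0 toward pancreas. Over all genes the rule called 4.76% toward neural tube and 5.5% toward pancreas. Among genes that reached 5 FPKM in either tissue it called 10.3% and 11.9%. The median difference of the 20 was 0.05, and 9 were under 5 FPKM in both samples. Cacna1b, a neuronal calcium channel gene next to Pax8 (chr2:24276071-24331119), had 12.5 FPKM in neural tube, against 0.252 FPKM in pancreas.

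The Gbx genes were the other 2 loci with such a neighbour, and their neighbours are paralogs as well. Gbx1 (chr5:24008575-24033094) lies 709 bases from Agap3 and 5420 bases from Asb10, and Gbx2 (chr1:91824537-91829865) lies 32679 bases from Agap1 and 19300 bases from Asb18. Agap3 had 65.35 FPKM in neural tube, against 12.8 FPKM in pancreas, and Agap1 had 27.7 FPKM in neural tube, against 4.12 FPKM in pancreas, both GTPase-activating protein genes. Asb10 and Asb18 were below 1 FPKM in both samples. Beside Lbx1, Tlx1, a homeobox gene of spleen and of some excitatory neurons, lies 75744 bases away and had 0.944 FPKM in neural tube and 4.26 FPKM in pancreas. Beside Tfap2b, its own paralog Tfap2d lies 42567 bases away and was listed at 0 in neural tube and at 0.0130 FPKM in pancreas.

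Lhx1 (chr11:84331479-84338923) lies 4454 bases from Aatf, which had 19.1 FPKM in neural tube and 18.1 FPKM in pancreas. Lhx5 (chr5:120881895-120891466) lies 16728 bases from Sdsl, which had 3.01 FPKM in neural tube and 12.2 FPKM in pancreas. Prdm13 (chr4:21604627-21613110) lies 41737 bases from Ccnc, which had 8.93 FPKM in neural tube and 12.95 FPKM in pancreas. The remaining flanking genes of the 10 lay between -1.51 and 1.55 in difference and are shown in the plot of neighbouring genes.

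Annotated genes on the opposite strand share exonic bases with 3 of the factors, 1372 with Gbx2, 111 with Tfap2a and 87 with Pax8. The table has no row under the symbols of those 3 genes, and strand use is not given in the sources used here, so reads from either strand cannot be told apart at these bases.

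The label of each sample was checked against markers. By the rule of size 6 of 6 neuron markers and 6 of 7 progenitor markers were called toward neural tube, where Vim, at 477 FPKM in neural tube and 273 FPKM in pancreas, fell short of it. The 6 acinar markers were at or below 0.0738 FPKM in neural tube. Called toward pancreas were 6 of 6 acinar, 5 of 7 endocrine, 4 of 6 duct, 5 of 6 mesenchyme, 4 of 5 endothelial and 4 of 5 macrophage markers. The endocrine marker Sst went the other way, at 144.5 FPKM in neural tube and 41.05 FPKM in pancreas, and passed the rule toward neural tube only with some rescalings. The duct marker Sox9 had 21.2 FPKM in neural tube and 12.6 FPKM in pancreas, short of the rule. With a pseudocount of 5 FPKM the endothelial count was 1 and the macrophage count 2. Of 5 erythroid markers 1 passed toward neural tube, Hba-x at 481 FPKM in neural tube and 33.6 FPKM in pancreas. The other 4 passed toward pancreas, among them Hba-a1, at 587.5 FPKM in neural tube and 14320 FPKM in pancreas. The sums of the 5 were 1088 FPKM in neural tube and 15890 FPKM in pancreas. Scaling moves the background: 46.4% of all calls were toward neural tube as deposited, 66.8% with samples rescaled to equal totals, 57.8% with rescaling to housekeeping genes and 57.9% with totals that leave out the most abundant genes. The median difference of genes that reached 1 FPKM in each tissue was 0.02 as deposited and 0.57, 0.31 and 0.31 under those 3 settings, small beside the differences of the 10 factors.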

How the data were processed

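The authors deposited 1 table of FPKM values with a column for each tissue. CASAVA, TopHat, TopHat2 2.0.4, Cuffdiff 2.0.2 and mm9 appear in the submitters' processing notes, without their roles. Gene annotation, filters and read counts are not stated there. Sorted cells were extracted with a column kit and pancreas with Trizol, per the labels' protocols, which name Illumina mRNA-seq and TruSeq preparations. The other 16 of the 18 samples, of chromatin, are not analysed here.

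From the deposited FPKM, log2(FPKM + 1) in neural tube minus pancreas was computed, which understates the difference of low genes. With 1 value per tissue no test was made, and genes were called by the rule of size in the text. Gene models came from GENCODE M1 on NCBIM37 (21723 symbols, 93.5%, matched) and promoters from RefSeq on GRCm38.p6. Named genes were the 10 factors, family members that reached 5 FPKM in either tissue, up to 3 per direction in each other list, flanking genes and the 5 nearest in level; a few others were named after their values were seen. A gene that this rule names is not reported here. The factors and lists were chosen with earlier results of these data known. Python 3.11.15, numpy 2.4.6 and pandas 2.3.3 were used. Alternatives were pseudocounts, minimum levels, thresholds and 5 rescalings.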

Additional observations from a re-analysis of the deposited data

How the results depend on the processing

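All 10 factors were higher in neural tube under each alternative tried: pseudocounts of 0.1 and 5 FPKM, 5 rescalings, no minimum, a minimum of 10 FPKM, and thresholds of 2 and 8 times. The changes of minimum, the lower threshold and the lower pseudocount could remove none of them. Their median difference, 5.98, was 8.56 and 3.80 with pseudocounts of 0.1 and 5 FPKM, and 5.97, 5.94, 6.16, 6.33 and 6.17 with rescaling to the median ratio, upper quartile, housekeeping genes, equal totals, and equal totals without abundant genes. Across 70 values of single factors 0 reversed, and the lowest was 2.82. A reversal was not possible, since a pseudocount keeps the sign of a difference and the rescalings were small beside these differences.

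With a pseudocount of 5 FPKM the calls toward neural tube came to 512 of all genes, against 1106 as reported (600 toward pancreas, against 1278). Those toward neural tube came to 4 against 11 of the genes for the complex and for dorsal progenitors. The other Pax genes, the excitatory selectors and the dI6, V0 and V1 genes each gave 1 against 3. Those calls came to 1 against 5 of the Pax, Lbx and Gbx partners. They came to 0 against 1 of the other LIM homeodomain genes and of the other Prdm genes, and to 1 against 2 of the LIM adaptors and of the AP-2 partners. Toward pancreas that pseudocount gave 0, against 4, of the neural crest markers, 1, against 4, of the endothelial and 2, against 4, of the macrophage markers, and 0, against 1, of the excitatory selectors, the dI6, V0 and V1 genes, the LIM adaptors, the other LIM homeodomain genes and the other Prdm genes. With equal totals the calls toward neural tube were 1772 over all genes, 2 of the other Prdm genes, against 1, 4 of the LIM adaptors, against 2, and 5 of the AP-2 partners, against 2. Thresholds of 2 and 8 times gave 2494 and 546 over all genes. No paired analysis was possible because each tissue has 1 pooled value. Depth limits the pancreas values of the 7 factors under 5 implied fragments.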
